A study of Mus musculus with 12 samples.

Results

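Scara5, Clca3a2, Arsi, Dio3, Adra1d, Lingo3 and Crocc2 are 7 mouse genes that stood lower after TNF in cultured fibroblast-like synoviocytes and that are seldom discussed in this cell type. They were picked by name from earlier results of the same libraries, because each had been called lower with TNF in control cells, in knockout cells or in both. All 7 were found among the 53341 genes of the deposited table, each in a single row, and all 7 were among the 18139 genes that passed a filter of at least 10 normalized counts in at least 3 of the 12 libraries. Of 9 genes called lower with TNF in knockout cells 6 were these genes, and of 6 called lower in control cells 3 were. These shares follow from how the genes were picked and are not a result.

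Fibroblast-like synoviocytes are the connective tissue cells that line joints, and TNF is an inflammatory cytokine that acts on them through NF-kB. The cells came from animals labelled SoxC mice, SoxC being the transcription factors Sox4, Sox11 and Sox12. Every culture received an adenovirus. SoxC_KO_TNF cells received Ade5CMV-Cre and TNF, SoxC_KO cells received Ade5CMV-Cre alone, control_TNF cells received Ade5CMV-eGFP and TNF, and control cells received Ade5CMV-eGFP alone, with 3 libraries in each group. TNF, a recombinant human preparation, was applied at 10 ng/mL over 16 h. Cre and eGFP were thus delivered by virus under a CMV promoter, the alleles that Cre recombines are not described in the labels, and the labels leave unsaid if the 3 libraries in each group stem from different mice or cultures. P-values rest on library-to-library spread, part or all of which may be technical.

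Normalized totals were 19590000 to 23110000 counts per library, from an estimated 8140000 to 13660000 read pairs. Sox4 was at 601 to 1086 normalized counts in SoxC_KO_TNF, 548 to 1433 in SoxC_KO, 1625 to 3646 in control_TNF and 1857 to 4238 in control, so its transcript remained in the knockout groups. Sox11 was at 29.5 to 104.5 in SoxC_KO_TNF, 26.8 to 175 in SoxC_KO, 138 to 248 in control_TNF and 153 to 272 in control, so its groups overlapped without TNF. Sox12 was at 86.5 to 159 in SoxC_KO_TNF, 194 to 259 in SoxC_KO, 237 to 326 in control_TNF and 162 to 352 in control, so without TNF its groups overlapped. The 4 libraries numbered 3 were the highest on the first principal component (51.6% of the variance), at 28.5 to 119.7. Next came control_TNF replicate 1 at 6.1, and the others were at -24.9 or lower. Of 9 fibroblast-like synoviocyte markers all 9 passed the filter, with a summed count of 157200 to 457800 per library, against 1376 to 3964 for 7 macrophage markers. Albumin stood at 2690 in SoxC_KO_TNF replicate 1 and at 382 in control_TNF replicate 2, against 7.54 or less in the other 10 libraries, so values without these 2 libraries are given below where they matter.

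The 7 genes have different known roles. Scara5 is a class A scavenger receptor that takes up ferritin. Clca3a2 belongs to CLCA, a family of proteins named after calcium-activated chloride channels. Arsi is an arylsulfatase, an enzyme of the family that removes sulfate groups. Dio3, the type III deiodinase, inactivates thyroid hormone, and its gene is imprinted. Adra1d is an alpha1-type adrenergic receptor that signals through Gq when noradrenaline binds. Lingo3 is a transmembrane protein with leucine-rich repeats, related to the Nogo receptor partner Lingo1. Crocc2 is related to rootletin, the main protein of the ciliary rootlet.

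Promoter sequence of 3 of the 7 genes is given from RefSeq's mouse assembly GRCm38.p6. The bases before each RefSeq start are shown so that genes picked together as lower with TNF can be compared. They are 250 for Lingo3 and Crocc2. For Dio3 the RefSeq start lies inside the gene as the deposited table places it, so that 162 of the 250 bases fall within the gene there, and only the 88 bases before it are printed. Capitals mark every match, on either strand, to the NF-kB consensus, AP-1 (TGANTCA), the SOX motifs AACAAT and AACAAAG, or TATAAA. The regions are chr12:110278980-110279067 on the plus strand for Dio3, chr10:80844040-80844289 on the minus strand for Lingo3 and chr1:93168173-93168422 on the plus strand for Crocc2. Each is written from 5′ to 3′ along its gene.
Dio3: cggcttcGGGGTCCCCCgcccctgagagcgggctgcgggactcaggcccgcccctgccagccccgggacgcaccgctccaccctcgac
Lingo3: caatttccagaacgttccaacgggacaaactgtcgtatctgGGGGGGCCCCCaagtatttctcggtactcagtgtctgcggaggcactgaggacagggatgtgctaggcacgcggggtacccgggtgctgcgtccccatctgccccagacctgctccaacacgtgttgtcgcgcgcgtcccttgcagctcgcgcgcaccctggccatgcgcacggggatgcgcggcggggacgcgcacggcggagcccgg
Crocc2: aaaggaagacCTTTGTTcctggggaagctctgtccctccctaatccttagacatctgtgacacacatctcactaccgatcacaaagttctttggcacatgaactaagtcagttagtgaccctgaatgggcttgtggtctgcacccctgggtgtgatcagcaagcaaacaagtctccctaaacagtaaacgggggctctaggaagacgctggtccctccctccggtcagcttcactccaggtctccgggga

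All 250 bases before each RefSeq start were searched, and positions count from that start. For Dio3 a match to the NF-kB consensus lay at -243 to -234, before the deposited start of the gene, and another at -59 to -50 and TATAAA at -31 to -26 lay after the deposited start. The Lingo3 window held overlapping NF-kB matches at -209 to -199. The Crocc2 window, taken from a RefSeq start that lies before the start in the deposited table, held AACAAAG on the minus strand at -240 to -234 and no other match. In the same 250 bases of 32851 RefSeq promoters, 7.25% held the NF-kB consensus, 6.75% AP-1, 9.42% AACAAT, 5.03% AACAAAG and 12.4% TATAAA. A match is a description of the letters and not a bound site. GC content was 69.6% for Dio3 and 66.8% for Lingo3, which have 21 and 27 CpG dinucleotides, against 52.4% and 5 for Crocc2 and a median of 52.4% and 6 over all promoters. For Lingo3 RefSeq lists a second start inside the gene, whose 250 bases held none of these motifs.

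Dio3 (ENSMUSG00000075707; mm10 chromosome 12, 110279068 to 110281097, plus strand) was the most abundant of the 7. Its normalized counts were 870, 1006 and 906 in SoxC_KO_TNF, against 2816, 2485 and 4658 in SoxC_KO. They were 1046, 854 and 1107 in control_TNF, against 2227, 2242 and 2863 in control. The TNF libraries lay below the untreated ones without overlap in both genotypes, and SoxC_KO replicate 3 stood above all others. SoxC_KO_TNF averaged 927.6 ± 70.5 and SoxC_KO 3320 ± 1171, so TNF-treated knockout cells held 27.9% of the untreated level (SD, n = 3 each). Control_TNF averaged 1003 ± 132 and control 2444 ± 363, or 41.0% (SD, n = 3 each). By replicate number the log2 difference was -1.69, -1.30 and -2.36 in knockout cells and -1.09, -1.39 and -1.37 in control cells.

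Adra1d (ENSMUSG00000027335; chromosome 2, 131545850 to 131562283, minus strand) had the lowest share left with TNF in knockout cells. It was at 111, 226 and 180 normalized counts in SoxC_KO_TNF, against 674, 459.9 and 865 in SoxC_KO. In control_TNF it was at 200, 227 and 167, against 572, 504 and 460.0 in control. No TNF library reached the lowest untreated library of its genotype, and the knockout libraries were spread more widely than the control ones. The means were 173 ± 57.8 in SoxC_KO_TNF and 666 ± 203 in SoxC_KO, or 25.9%, and 198 ± 30.2 in control_TNF and 512 ± 56.4 in control, or 38.6% (SD, n = 3 each). The log2 difference by number was -2.59, -1.02 and -2.26 in knockout cells, so replicate 2 differed least, and -1.51, -1.15 and -1.46 in control cells. Its exons overlap the opposite-strand gene Gm14285, which was at 2.90 or less in every library and shares 5.35% of its 50-base stretches.

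Arsi (ENSMUSG00000036412; chromosome 18, 60911780 to 60918561, plus strand) was at 164, 179 and 201 normalized counts in SoxC_KO_TNF, against 449, 449 and 613 in SoxC_KO. It was at 154, 167 and 223 in control_TNF, against 399.6, 460.2 and 415 in control. The groups did not overlap in either genotype. Both TNF groups had almost the same mean, 181 ± 18.3 in SoxC_KO_TNF and 182 ± 36.7 in control_TNF, below 504 ± 94.8 in SoxC_KO and 425 ± 31.5 in control (SD, n = 3 each).

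Clca3a2 (ENSMUSG00000028262; chromosome 3, 144796559 to 144819494, minus strand) was at 56.3, 60.2 and 52.9 normalized counts in SoxC_KO_TNF, against 98.1, 120.2 and 115 in SoxC_KO. It was at 32.1, 45.7 and 36.9 in control_TNF, against 102, 85.5 and 119 in control. It was the only one of the 7 whose difference was smaller in knockout cells, which held 50.8% of the untreated level, against 37.4% in control cells. Its reads may be shared with close copies. Of the 50-base stretches of its transcripts 26.9% also occur in transcripts of other genes, among them Clca3a1, Clca3b and the opposite-strand gene Gm43240 that overlaps its exons, and of its 150-base stretches 2.97% do. Clca3a1 was at 3.35 to 39.1, Clca3b at 2.64 to 25.1 and Gm43240 at 8.38 or less in every library. The labels do not say how shared reads were counted, so its values are uncertain.

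Scara5 (ENSMUSG00000022032; chromosome 14, 65666403 to 65764826, plus strand) was at 31.1, 34.7 and 40.8 normalized counts in SoxC_KO_TNF, against 98.0, 114 and 83.2 in SoxC_KO. It was at 33.8, 38.8 and 38.2 in control_TNF, against 102, 81.3 and 84.3 in control. The groups did not overlap, with 36.1% of the untreated mean left in knockout cells and 41.4% in control cells. Its libraries agreed closely within groups, with a standard deviation of 0.18 on the log2 scale, and only 1.60% of 1438 genes of like level had a smaller one. Crocc2 had 0.30, and 16.4% of 1455 genes of like level had a smaller one. A call favours a small spread in these same libraries, so these ranks draw on the choice of the genes and are a description.

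Crocc2 (ENSMUSG00000084989; chromosome 1, 93168725 to 93231072, plus strand) was the least abundant per length. It was at 20.7, 42.6 and 24.8 normalized counts in SoxC_KO_TNF, against 98.9, 97.3 and 112 in SoxC_KO. It was at 34.6, 36.9 and 36.3 in control_TNF, against 101, 78.1 and 69.8 in control. The groups did not overlap, with 28.6% of the untreated mean left in knockout cells and 43.3% in control cells. The lowest of these values stands for about 8 read pairs, so counting error alone is large there.

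Lingo3 (ENSMUSG00000051067; chromosome 10, 80832801 to 80844039, minus strand) behaved otherwise. It was at 33.7, 46.5 and 43.7 normalized counts in SoxC_KO_TNF, against 93.3, 103 and 153 in SoxC_KO, with no overlap. In control cells it was at 57.7, 58.6 and 73.8 with TNF, against 71.7, 63.1 and 82.2 without, and the groups overlapped. TNF-treated cells held 35.5% of the untreated mean in knockout cells and 87.6% in control cells. By number the log2 difference was -1.44, -1.13 and -1.78 in knockout cells and -0.31, -0.10 and -0.15 in control cells.

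**Figure D1:**
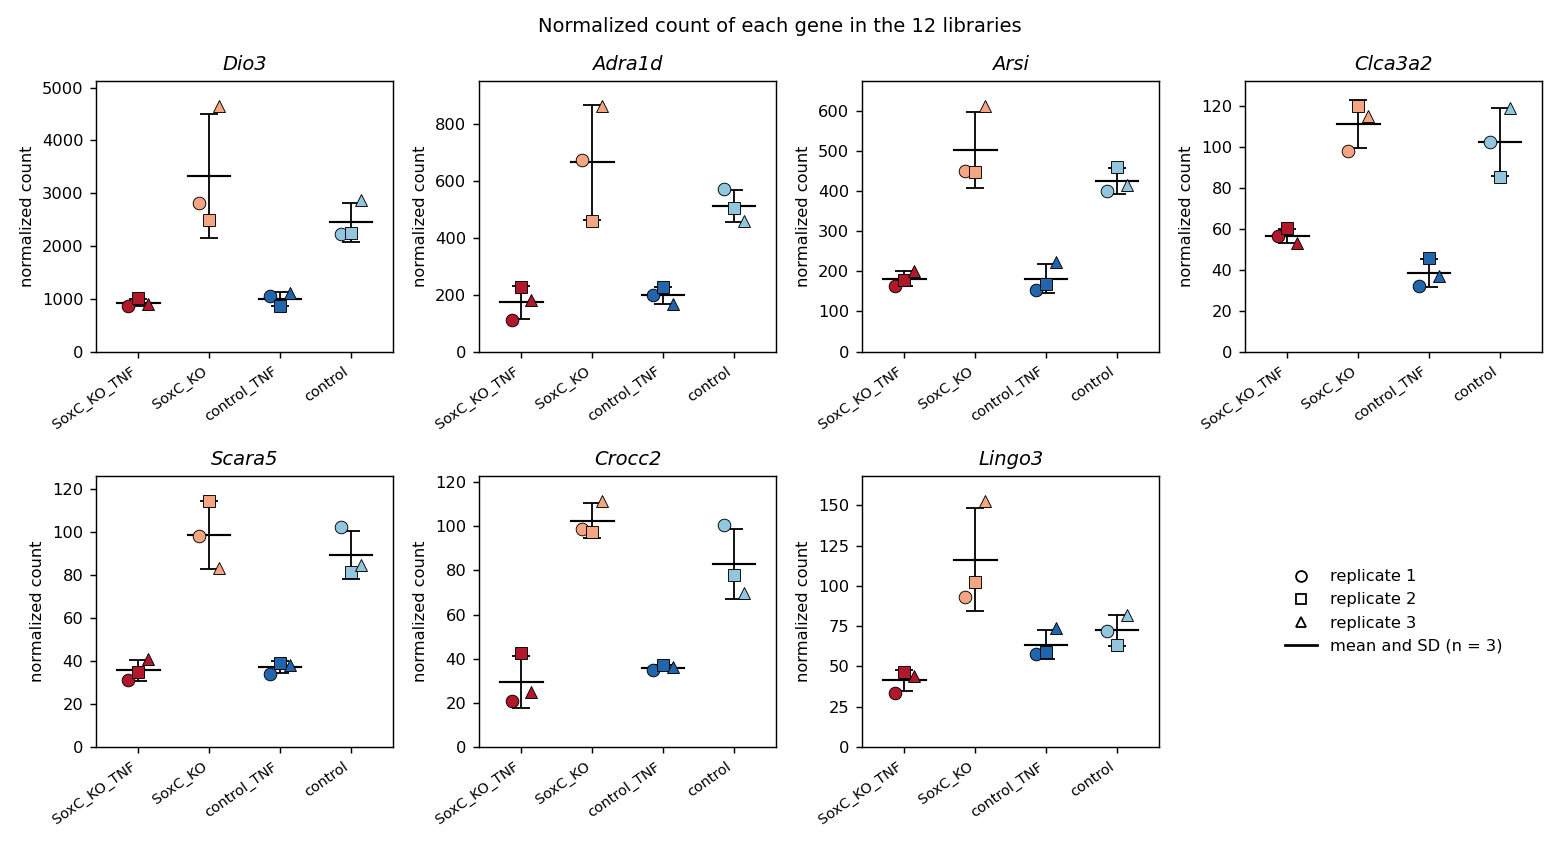
Normalized counts (vertical axis, from 0, a scale per gene) of the 7 genes in 12 libraries of 4 groups. Symbols give the replicate number, lines the mean and bars the SD of 3 libraries. TNF libraries lie below untreated ones without overlap in both genotypes except for Lingo3 in control cells, at 57.7 to 73.8 with TNF and 63.1 to 82.2 without.

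Per kilobase of exon, from the GENCODE M21 annotation, the 7 genes differed widely in level over the 12 libraries. Dio3 averaged 947 normalized counts per kb, above 92.8% of the genes tested. Adra1d followed with 204 and Arsi with 108 per kb. Lingo3 (20.6), Clca3a2 (19.4), Scara5 (10.7) and Crocc2 (8.79) lay in the lowest 28.7% of the genes tested. The order of Lingo3 and Clca3a2 differed between groups. Lingo3 was below Clca3a2 in SoxC_KO_TNF, at 11.6 ± 1.89 and 14.2 ± 0.92 per kb, and above it in control_TNF, at 17.8 ± 2.54 and 9.63 ± 1.74 (SD, n = 3 each). Lingo3 was picked through a call in knockout cells only and Clca3a2 through a call in control cells only. Their order in these groups therefore draws on the choice and is a description.

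The log2 difference of TNF-treated and untreated cells, on the scale of log2(normalized count + 1) that understates low genes, is a description where it led to the choice of the gene. In knockout cells it was -1.96 for Adra1d (SE 0.30), -1.83 for Crocc2 (SE 0.28), -1.79 for Dio3 (SE 0.24), -1.46 for Arsi (SE 0.21), -1.45 for Lingo3 (SE 0.26) and -1.44 for Scara5 (SE 0.22). These 6 were called lower there by limma at an adjusted p under 0.05, a call that 0.0496% of all genes received. None of the 7 was called there without the 2 libraries with albumin, without SoxC_KO_TNF replicate 1 or 3 alone, or in a fit to only the groups compared. In control cells it was -1.40 for Clca3a2, -1.24 for Scara5 and -1.24 for Arsi (SE 0.21 to 0.22), the 3 called lower there, where 0.0331% of all genes were. None was called there without the 2 libraries with albumin, in a fit to only the groups compared, or without any 1 of the 12 libraries except SoxC_KO replicate 3, which left 4 called. Groups that did not overlap, with TNF lower, were found for 7 of the 7 genes in knockout cells, against 6.40% of all genes, and for 6 of the 7 in control cells, against 4.11%. The median difference of the 7 genes was -1.46 in knockout cells and -1.25 in control cells, and that of all genes tested was -0.01 and -0.02. Both the non-overlaps and these medians draw on the choice of the genes and are a description. Fewer cells of a kind and less RNA per cell cannot be told apart in such bulk samples.

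For 5 of the genes the call was in a single genotype, so the log2 difference in the other genotype was not the one called. The libraries of that other genotype did enter the spread behind the call, and results of both genotypes were known at the choice. The values below are therefore a description. In control cells Dio3 had a log2 difference of -1.28 (95% interval -1.81 to -0.76; limma adjusted p = 0.0609 over all genes). Adra1d had -1.37 (-2.03 to -0.72; adjusted p = 0.132), Crocc2 -1.17 (-1.78 to -0.55; adjusted p = 0.213) and Lingo3 -0.19 (-0.75 to 0.37; adjusted p = 0.998). In knockout cells Clca3a2 had -0.96 (-1.45 to -0.47; adjusted p = 0.16). None of the 5 passed, which follows from their choice as genes called in a single genotype by this same fit and is not a result. With replicate number as a block, Dio3 (adjusted p = 0.00207) and Adra1d (adjusted p = 0.0253) fell in control cells and Clca3a2 fell in knockout cells (adjusted p = 0.0382), while Crocc2 (adjusted p = 0.0605) and Lingo3 (adjusted p = 0.734) did not pass. The block called 0.529% of all genes lower in control cells and 1.0% in knockout cells. The spread per gene was estimated from all 12 libraries, so these tests share it with the calls that led to the choice. In fits to only the 6 libraries of the genotype, none of the 5 passed without the block (limma adjusted p = 0.193 for Dio3, 0.188 for Adra1d, 0.358 for Crocc2, 0.985 for Lingo3 and 0.67 for Clca3a2). With the block, a fit added after the data were seen, Dio3, Adra1d and Crocc2 passed (limma adjusted p = 0.000384, 0.000918 and 0.0299). Lingo3 (adjusted p = 0.681) and Clca3a2 (adjusted p = 0.349) did not pass. That fit called 543 of all genes tested in control cells, 210 of them lower. In knockout cells it called 31, 5 of them lower. Without the 2 libraries with albumin, and without the block, the differences were -1.17 for Dio3, -1.48 for Adra1d, -1.19 for Crocc2 and -0.14 for Lingo3 in control cells and -0.96 for Clca3a2 in knockout cells, and none passed (adjusted p = 0.227 to 0.862).

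**Figure D2:**
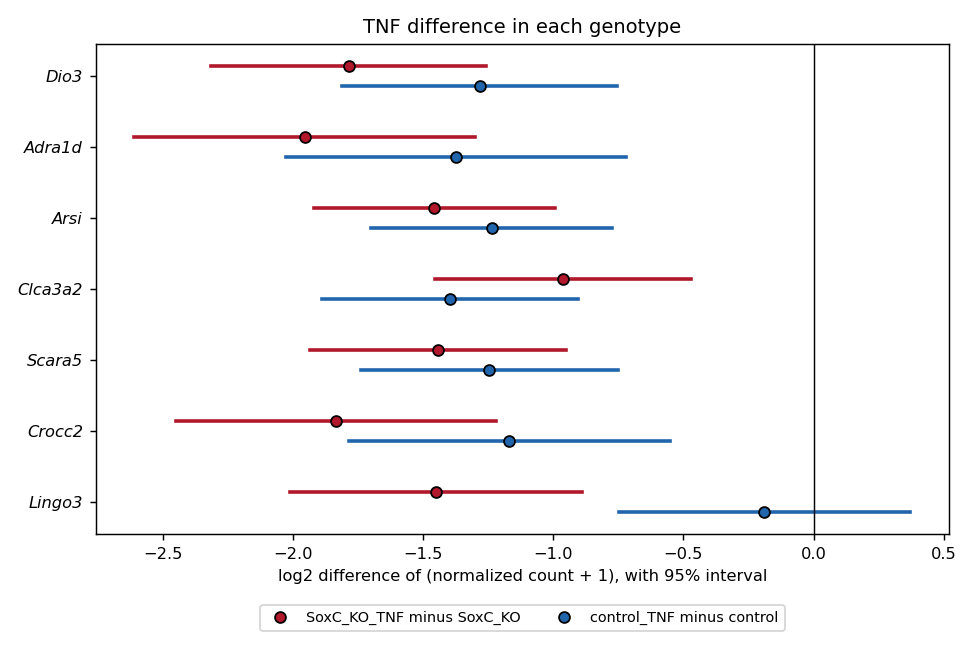
Log2 difference of TNF-treated and untreated cells (horizontal axis) for each of the 7 genes, in knockout cells (red) and control cells (blue), with its 95% interval from the limma fit to 12 libraries. The intervals lie below 0 except for Lingo3 in control cells, at -0.75 to 0.37.

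Summed markers of other cell types were also set side by side. The summed count of 5 skeletal muscle markers was 403 to 1140 in SoxC_KO_TNF and 623 to 1276 in SoxC_KO, and 351 to 553 in control_TNF, below the 715 to 902 of control. Of these markers 4 passed the filter. Acta1 made up most of the sum in control cells, with a mean of 360 in control_TNF and 706 in control. Mylpf (52.8 and 42.2) and Ckm (2.35 and 0.654) went the other way, while Myh4 (5.10 and 10.2) and Tnnt3 (20.7 and 23.9) were lower with TNF. Myh4 stood at 277 in SoxC_KO_TNF replicate 1 and 188 in SoxC_KO replicate 1, against 13.3 or less in every other library. The summed count of 4 chondrocyte markers was 1434 to 2175 in SoxC_KO_TNF, below 2922 to 3619 in SoxC_KO, and 1808 to 2284 in control_TNF against 1908 to 2951 in control. Of these markers 2 passed the filter, Comp and Col2a1. With the block both were called lower in knockout cells, a call that 1.0% of all genes received there. Without the block neither passed there (limma adjusted p = 0.177 for Comp and 0.811 for Col2a1). Comp made up most of the sum, with a mean of 1698 in SoxC_KO_TNF and 3118 in SoxC_KO, against 104 and 187 for Col2a1. Sums of 4 adipocyte markers were 12.2 to 14.2 in SoxC_KO_TNF and 14.8 to 31.1 in SoxC_KO, and 7.09 to 19.2 in control_TNF and 18.1 to 27.0 in control, with Lep at 0 in every library of SoxC_KO, control_TNF and control. Endothelial sums, over 5 markers, were 193 to 261 in SoxC_KO_TNF, 161 to 268 in SoxC_KO, 158 to 220 in control_TNF and 183 to 287 in control. Sums of 5 hepatocyte markers were 3.87 to 3620 in SoxC_KO_TNF, 8.88 to 69.8 in SoxC_KO, 0 to 535 in control_TNF and 14.2 to 24.1 in control, with Apoa2 and Serpina1a at 0 in all libraries without TNF. The part of these markers in the differences of the 7 genes was not tested.

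Knockout and control cells were compared in the same libraries that led to the choice of the genes. A call in knockout cells favours high values in SoxC_KO and low ones in SoxC_KO_TNF, and a call in control cells favours high values in control and low ones in control_TNF. The directions and non-overlaps below therefore draw on the choice and are a description. Without TNF all 7 genes were higher on average in SoxC_KO than in control, by 0.13 (Clca3a2) to 0.65 (Lingo3) on the log2 scale, and none passed (limma adjusted p = 0.999 for each; 0 of 18139 genes, or 0%, passed). With TNF 5 of the 7 were lower in SoxC_KO_TNF than in control_TNF and none passed (adjusted p = 0.997 for each; again 0% of genes). At an unadjusted p under 0.05 stood Lingo3 without TNF, where 0.970% of all genes did, and Lingo3 and Clca3a2 with TNF, where 1.28% did. Lingo3 libraries did not overlap in either setting, 93.3 to 153 in SoxC_KO being above 63.1 to 82.2 in control, and 33.7 to 46.5 in SoxC_KO_TNF below 57.7 to 73.8 in control_TNF. Their log2 differences were 0.65 (95% interval 0.09 to 1.21) without TNF and -0.61 (-1.17 to -0.05) with TNF. Clca3a2 was at 52.9 to 60.2 in SoxC_KO_TNF, above 32.1 to 45.7 in control_TNF, a log2 difference of 0.56 (0.07 to 1.05). Non-overlap with the knockout higher was found for 2.39% of all genes without TNF and 2.82% with TNF, and with the knockout lower for 2.34% with TNF.

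Averaged over both TNF settings, the knockout differed from control by -0.01 (Crocc2) to 0.34 (Clca3a2) on the log2 scale, and none of the 7 passed (limma adjusted p = 1 for each; 0% of genes passed, and 0.00551% with the block). Clca3a2 had the lowest unadjusted p, 0.0518 in the limma fit without the block, where 0.772% of all genes had one under 0.05, and 0.0469 with the block. Its 95% interval was -0.003 to 0.692, against -0.45 to 0.42 for Crocc2 and -0.31 to 0.39 for Scara5.

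Whether the TNF difference itself depended on the knockout was tested as the difference of the 2 responses, that in knockout cells minus that in control cells. It was -1.26 for Lingo3 (SE 0.36, 95% interval -2.05 to -0.47), -0.67 for Crocc2, -0.58 for Adra1d, -0.50 for Dio3, -0.22 for Arsi, -0.20 for Scara5 and 0.44 for Clca3a2. Lingo3 had an unadjusted p of 0.00481, where 1.51% of all genes had one under 0.05, and its adjusted p was 0.884 (limma over 18139 genes, of which 0% passed). With the replicate block its adjusted p was 0.284. Genes called in knockout cells but not in control cells, as Lingo3, Crocc2, Adra1d and Dio3 were, tend towards a negative difference through that choice alone, and Clca3a2, called only in control cells, towards a positive one.

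**Figure D3:**
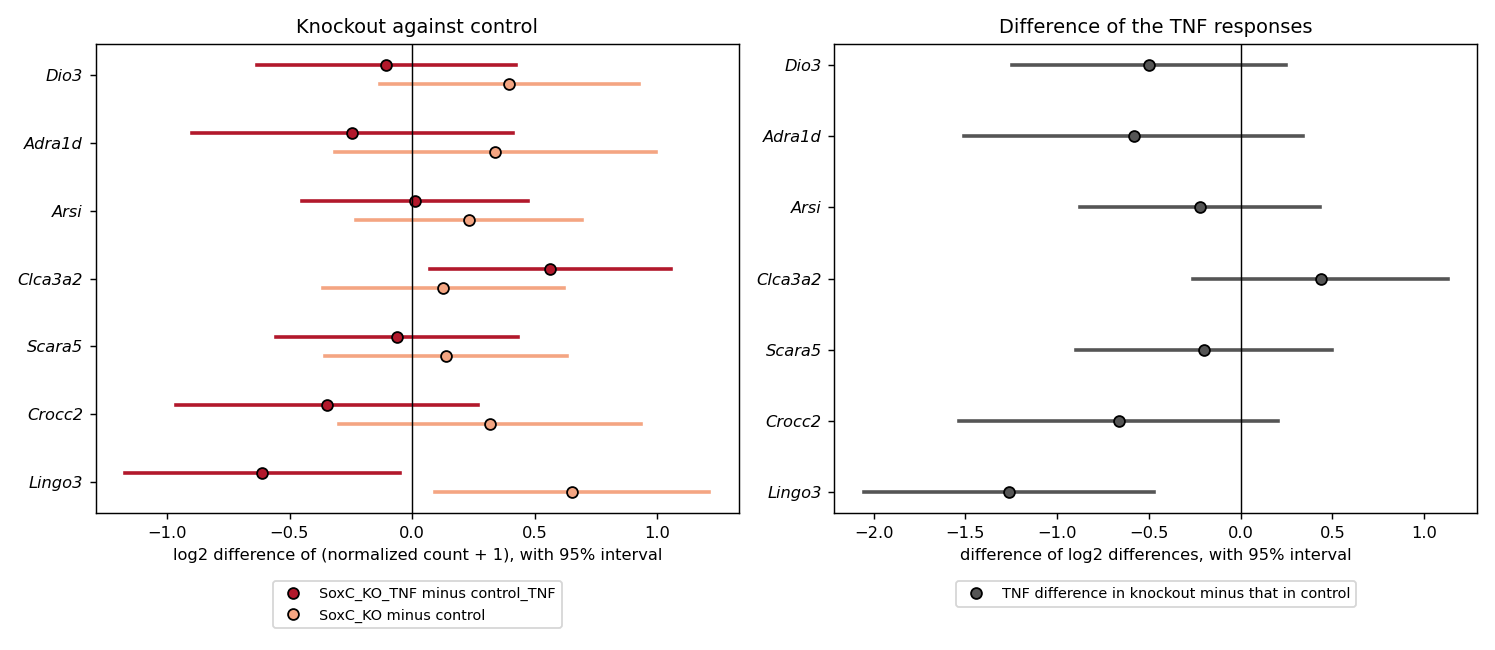
Left, log2 difference of knockout and control cells with TNF (dark red) and without TNF (light red). Right, the TNF difference in knockout cells minus that in control cells. Both axes carry log2 units and lines are 95% intervals. Lingo3 lies above 0 without TNF (0.09 to 1.21), below 0 with TNF (-1.17 to -0.05) and below 0 on the right (-2.05 to -0.47).

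Relatives and pathway partners of the 7 genes were described from lists chosen with earlier results known. None of the 12 lists had another member called with TNF in either genotype, where limma called 0.292% of all genes in knockout cells and 0.320% in control cells. The calls below are those of the fit with the replicate block, which called 2.78% of all genes in knockout cells and 1.71% in control cells.

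Among adrenergic receptors 4 of 8 relatives of Adra1d passed the filter. Adra1b, its close Gq-coupled relative, was at 51.9, 54.2 and 68.4 in SoxC_KO_TNF, against 100.3, 120 and 186 in SoxC_KO. In control_TNF it was at 69.5, 40.8 and 60.0, against 85.2, 107 and 133 in control. It fell by 1.17 on the log2 scale in knockout cells (limma with block, adjusted p = 0.0251), and its difference in control cells was -0.94 (adjusted p = 0.0925). Adra2a, an alpha2-type receptor coupled to Gi, fell by 0.77 in knockout cells (adjusted p = 0.021) and differed by -0.55 in control cells (adjusted p = 0.124). None of 10 tested Gq signalling genes passed, Gna11 having the highest mean (-0.26 in knockout cells and 0.05 in control cells).

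Of 11 tested genes of thyroid hormone handling 1 passed in knockout cells and 0 in control cells. Dio2, the deiodinase that activates thyroid hormone, rose by 1.38 in knockout cells (limma with block, adjusted p = 0.0441) and differed by 0.18 in control cells (adjusted p = 0.84). Ncor1, a corepressor of thyroid hormone receptors with the highest mean normalized count of them, differed by 0.42 and -0.45 and did not pass. None of 5 tested genes of the Dlk1-Dio3 imprinted domain passed, Rian differing by 0.33 in knockout cells and -0.13 in control cells. Nearer to Dio3, AL591207.1, an opposite-strand gene 0.896 kb before it, was at 88.2, 96.0 and 71.2 in SoxC_KO_TNF, against 224, 152 and 276 in SoxC_KO. In control_TNF it was at 104, 80.6 and 69.3, against 157, 132 and 112 in control. Its difference was -1.31 in knockout cells (adjusted p = 0.0946, and 0.0132 with the block) and -0.66 in control cells (adjusted p = 0.277 with the block).

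Of 4 other class A scavenger receptors 1 passed, in knockout cells. Msr1, known from macrophages, rose by 1.41 there (limma with block, adjusted p = 0.0334), and differed by 0.99 in control cells (adjusted p = 0.194). Colec12, the most abundant of the class, differed by 0.12 and -0.40. Of 13 iron genes 3 rose in knockout cells, the exporter Slc40a1 (1.55, limma with block, adjusted p = 0.0153), the ferroxidase Cp (0.84, adjusted p = 0.024) and the importer Slc11a2 (0.54, adjusted p = 0.0382), and Slc11a2 rose in control cells (0.56, adjusted p = 0.042). The ferritin chain Fth1 differed by 0.05 and 0.41 and did not pass.

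Of 12 markers of universal and adventitial fibroblasts 3 rose and 2 fell in knockout cells, and 1 rose and 1 fell in control cells. Ly6c1 fell by 0.73 and 0.78 (limma with block, adjusted p = 0.0116 and 0.00859) and Cd34 rose by 0.91 and 0.90 (adjusted p = 0.0163 and 0.0208) in knockout and control cells. Sema3c rose by 1.07, Dcn rose by 0.96 and Gsn fell by 0.74 in knockout cells.

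The other families gave no call. Of 13 sulfatase genes besides Arsi none passed, and their median difference was -0.17 in knockout cells and -0.27 in control cells. Of 6 tested CLCA and chloride channel genes none passed, Clca3a1 standing at 0.06 and -0.05, Clca3b at -0.37 and -1.66, and Ano6 at 0.09 and -0.36. Of 7 LINGO and Nogo receptor genes none passed, Lingo1 standing at -0.53 and -0.21 and the abundant Rtn4 at 0.01 and -0.02. Of 6 rootlet and centrosome linker genes none passed, with Crocc, which encodes rootletin, at -0.92 and -0.26 and Cep250 at 0.11 and 0.31, in knockout and control cells in this order. Of 12 cilium assembly genes none passed, Ift20 standing at 0.02 and 0.17.

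**Figure D4:**
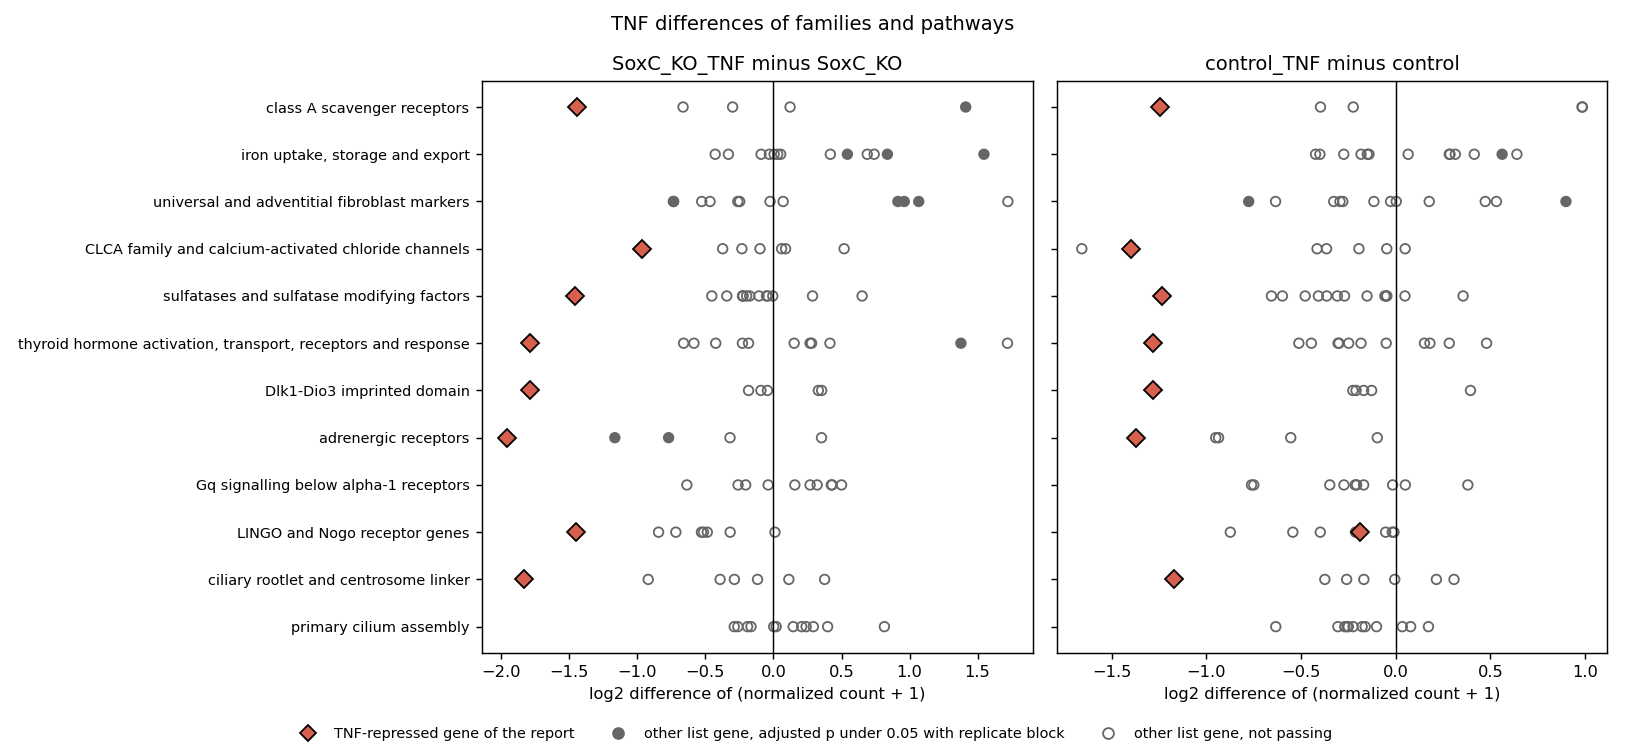
Log2 difference of TNF-treated and untreated cells (horizontal axis) for genes of 12 lists (rows), in knockout cells (left) and control cells (right). Diamonds are the 7 genes described here, filled circles other genes with an adjusted p under 0.05 in the fit with replicate block, open circles genes that did not pass. The diamonds lie at -0.96 or lower except Lingo3 in control cells.

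On the chromosome the genes stand apart from each other, on 7 chromosomes. Of the 14 nearest tested genes on either side, none was called with TNF without the block. With it, AL591207.1 near Dio3 fell in knockout cells, as given above. Sned1, which lies 4.77 kb from Crocc2 and encodes a matrix glycoprotein, fell in both genotypes with the block. It was at 594, 462 and 162 in SoxC_KO_TNF against 1414, 1652 and 335 in SoxC_KO, and at 300.3, 646 and 154 in control_TNF against 2199, 1670 and 396 in control. Its libraries numbered 3 were lowest in every group, and its difference was -1.38 in knockout cells (limma with block, adjusted p = 0.0174, and 0.766 without) and -1.86 in control cells (adjusted p = 0.0028, and 0.998 without).

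Likeness of pattern was measured as Pearson's r over the 12 libraries on the log2 scale, among 11655 named genes with a mean of at least 50. It is a description, since the libraries share the TNF groups for which the genes were picked. The genes most like Dio3 were Plpp1 (r = 0.982), Aqp5 (0.967) and Mthfd2 (0.966). Those most like Adra1d were Nectin1 (0.967), Il4ra (0.948) and Ctps (0.947), and those most like Crocc2 were Nectin1 (0.974), Apol6 (0.955) and Galnt9 (0.951). Arsi was closest to Plin4 (0.975), Plpp1 (0.974) and Ntn4 (0.958), and Scara5 to Galnt9 (0.956), Prss23 (0.956) and Col10a1 (0.951). Clca3a2 was closest to Bag2 (0.936), Pxylp1 (0.934) and Tfcp2 (0.930), and Lingo3 to Neurl1a (0.959), Cavin1 (0.942) and Angpt4 (0.935). With group means removed, the likeness of Scara5 to Galnt9 was -0.52, while that of Dio3 to Plpp1 was 0.898, of Arsi to Ntn4 0.900 and of Lingo3 to Cavin1 0.919.

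Among the 7 genes themselves the r over 12 libraries was 0.615 (Clca3a2 and Lingo3) to 0.970 (Adra1d and Crocc2). With group means removed it was 0.832 for Dio3 and Lingo3, 0.732 for Arsi and Lingo3, 0.730 for Adra1d and Crocc2 and 0.617 for Arsi and Dio3. Scara5 and Dio3 then stood at -0.60. These values within groups also hold the shared difference of the libraries numbered 3.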

How the data were processed

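Poly(A) RNA of 12 libraries was sequenced as paired reads, per the labels' protocols. The deposited table holds log2 normalized counts, 1 value per gene and library. The log base was inferred from the values, and low values are listed as 0. The authors' processing notes name mm10 and DESeq, while aligner, annotation and strand setting were not found in the labels or headers. Values listed as 0 were kept as 0 and the others raised to the power of 2. Of the low values 53.8% to 63.2% were whole or mid-step multiples of the inferred value of 1 read pair (tolerance 0.01 step), so whole reads were not recovered, no count test was run, and read pair numbers are rough.

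Genes with at least 10 normalized counts in at least 3 libraries were fitted as log2(normalized count + 1) with limma 3.58.1 in R 4.3.3, with a mean per group, an intensity trend and Benjamini-Hochberg adjustment over 18139 genes at 0.05. The fit was tested on simulated data with independent noise and a capped spread, and without the difference of the libraries numbered 3. How the fit performs with that difference was not tested. Of the gene IDs 99.8% were found in GENCODE M21, 96.3% of those with the same start and end. Figures used Python 3.11.15 with matplotlib 3.10.9.

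The 7 genes, the lists and the tests were chosen with earlier results of these data known. The text names all 7, list members called in a contrast (at most 4 per list and contrast), for a list with none the member with the highest mean (1 such gene and 1 promoter are not reported here), family copies, flanking genes and the 3 genes most like each. The lists for families held no call without the block, and calls with it were added after the values were seen.

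Replicate numbers were checked by correlating same-numbered libraries with group means removed. All pairs exceeded 0.1 for TNF in control cells (0.103, 0.550 and 0.715), TNF in knockout cells (0.340, 0.148 and 0.501) and knockout without TNF (0.457, 0.515 and 0.707), so the block result is given there. They did not for knockout with TNF (0.0537, 0.189 and 0.526). The block results given for the knockout averaged over TNF and for the difference of TNF responses also use those libraries. The shared difference of the libraries numbered 3 enters all of these values.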

Additional observations from a re-analysis of the deposited data

How the results depend on the processing

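In TNF comparisons every one of the 7 genes kept its negative log2 difference under all 22 alternatives in both genotypes, while the calls were less stable. The genes were picked as lower with TNF in these same libraries, so the kept sign draws on the choice and is a description. The number of all genes called with TNF in control cells (58) became 35 with no filter on low values, 310 with the replicate block, 272 without the libraries numbered 3, 15 without the 2 libraries with liver transcripts, 0 (limma) in a fit to only the groups compared and 543 in that fit with the block, the last an alternative chosen after seeing the data. Leaving out 1 library gave 5 to 84, with 9 and 11 without control replicates 1 and 2, 5, 14 and 22 without control_TNF replicates 1, 2 and 3, 31 and 34 without SoxC_KO replicates 1 and 2, and 28, 28 and 35 without SoxC_KO_TNF replicates 1, 2 and 3. In knockout cells the number (53) became 505 with the block, 190 without the libraries numbered 3, 10 without the 2 libraries with liver transcripts, 3 in a fit to only the groups compared and 31 in that fit with the block. Leaving out 1 library gave 14 to 55, with 19 and 29 without SoxC_KO replicates 1 and 2, and 14, 19 and 22 without SoxC_KO_TNF replicates 1, 2 and 3. Of the 7 genes, 3 were called in control cells and 0 without any 1 library except SoxC_KO replicate 3 (4), and 0 without the 2 libraries with liver transcripts, 3 without the libraries numbered 3, 0 in a fit to only the groups compared and 5 with the block. In knockout cells 6 were called, 0 without SoxC_KO_TNF replicate 1 or 3, 1, 3 and 3 without SoxC_KO replicates 1, 2 and 3, 2 without SoxC_KO_TNF replicate 2, 5 without any 1 control or control_TNF library, 4 without the libraries numbered 3, 0 in a fit to only the groups compared, 0 without the 2 libraries with liver transcripts and 7 with the block. Other alternatives called 0 (no filter, recentring) to 2 of the 7 in control cells and 3 (no filter) to 6 in knockout cells, except the blocked fit to only the groups compared, with 6 and 1. The log2 difference of Dio3 in knockout cells lay between -1.97 and -1.50 throughout.

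The comparisons of knockout and control called 0 genes. The exceptions were 1 gene without TNF, 1 with TNF and 1 averaged over TNF when the libraries numbered 3 were left out, 1 without TNF in the blocked fit to only the groups compared, 1 with TNF and 1 for the difference of TNF responses without the 2 libraries with liver transcripts, and 1 averaged over TNF with the block. Without any setting changed, 176 genes without TNF, 233 with TNF, 140 averaged and 273 for the difference of responses had an unadjusted p under 0.05. Small differences that did not pass changed sign in places. For the knockout with TNF, Arsi (0.01) became -0.016 with quantile normalization, -0.015 with recentring and -0.098 to 0.168 leaving out 1 library. Without the 2 libraries with liver transcripts Scara5 became 0.064 and Adra1d 0.15, and leaving out 1 library gave -0.163 to 0.029 and -0.468 to 0.041. For the knockout averaged over TNF, Crocc2 became 0.001 with a pseudocount of 5, 0.003 with recentring and 0.10 without the 2 libraries with liver transcripts, and without the libraries numbered 3 Adra1d became -0.19 and Lingo3 -0.005. Leaving out 1 library gave -0.161 to 0.09 for Crocc2, -0.065 to 0.19 for Adra1d, -0.086 to 0.091 for Lingo3 and -0.019 to 0.095 for Scara5. For the difference of TNF responses Arsi became 0.028 without the libraries numbered 3. The cause was not tested. The block changed no other call of the 7 genes than those given in the text. Depth limits Crocc2, Scara5, Clca3a2 and Lingo3 most, whose TNF libraries hold an estimated 8 to 37 read pairs each.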
